A study of Homo sapiens with 14 samples.

Results

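The items described here are annotated start codons of K562 mRNAs, sorted by the strength of their Kozak context, the bases around the AUG that affect how well it is used. Positions are counted from the A of the AUG as +1, with no position 0. A context was called strong with a purine (A or G) at -3 and a G at +4, medium with only 1 of these, and weak with neither. The start codons came from protein-coding transcripts present in all 4 reactivity profiles with the length that GENCODE release 44 gives them, with 1 transcript per gene taken by highest mean RPKM (reads scaled by transcript length and library size). Of 20512 transcripts in any profile, 15325 matched the reference, 6520 of these were protein coding, 5662 had an annotated start, 3069 were in all 4 profiles and 3063 began with AUG. A window of 30 nt on either side was complete in 2699 of these, from 1175 genes. Of the 1175 start codons, 480 were strong, 592 medium and 103 weak. The medium group held 518 with the purine alone and 74 with the G alone, named purine-only and G-only below. Before the window rule there were 1294 genes, so 119 were lost to it.

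K562 is an established human chronic myelogenous leukemia line. RNA was probed in living cells (in vivo) or after it had been isolated and refolded (in vitro), with NAI-N3 (icSHAPE), which acylates flexible 2′-hydroxyls, or with light-activated NAz-N3 (icLASER), which reacts with the C8 of solvent-exposed purines. The labels list 14 libraries, of which 8 are icSHAPE (3 in cells, 2 on refolded RNA, 3 with DMSO alone) and 6 are icLASER (2 in cells, 2 on refolded RNA, 2 kept from UV light). NAI-N3 was given at 100 mM for 5 min and UV light for 10 min. The authors pooled the libraries into 1 profile for each reagent and condition, so no value below has a replicate, no p-value was computed, and every SE is taken over genes, which are not replicates of a condition. The in vivo and in vitro profiles of a reagent share their control libraries. Scores run from 0 to 1 and the reads behind a score are unknown. Of 12 marker genes of K562 cells, 9 were in the profiles, among them the fetal globin genes HBG1 and HBG2 and the erythroid transcription factor GATA1, whose RPKM ranged from 67.0 to 83.4. LMO2 had only 9.30 to 11.2 RPKM and TFRC 9.24 to 17.97, and HBZ, TAL1 and KLF1 were absent. Of 7 markers of other cell types only EPCAM was present, at 11.9 to 14.9 RPKM.

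In cap-dependent initiation, the small ribosomal subunit with its initiation factors scans the leader from the cap and stops where the anticodon of the initiator tRNA pairs with an AUG. The purine at -3 and the G at +4 are the context bases with the strongest known effect on this choice, and AUG codons in a poor context can be passed over by leaky scanning. The factor eIF1 opposes pairing at poor sites, and its own mRNA is known for a start codon in a poor context.

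The following stretches run from -12 to +12 on build GRCh38, read 5′ to 3′ on the strand of the gene, with the base at -3, the AUG and the base at +4 in capitals. They are shown because the capitals at -3 and +4 define the classes, and because each is among the most abundant of its class or, for EIF1, is the initiation factor itself.
RPLP1, strong, chr15:69452937-69452960, plus strand: ctcgcccgcGccATGGcctctgtc
HBG1, strong, chr11:5249793-5249816, minus strand: agtccagacGccATGGgtcatttc
RPL41, purine-only, chr12:56116776-56116799, plus strand: aacctctgcGccATGAgagccaag
DLK1, purine-only, chr14:100727057-100727080, plus strand: ggccgcccaGagATGAccgcgacc
RPL31, G-only, chr2:101002690-101002713, plus strand: gcctgcattTagATGGctcccgca
RPS2, G-only, chr16:1964614-1964637, minus strand: ttttcccagCaaATGGcggatgac
EIF1, weak, chr17:41689027-41689050, plus strand: gaatcgtatCgtATGTccgctatc
RPL13A, weak, chr19:49490492-49490515, plus strand: ctccgcaagCggATGAacaccaac
The full letters gccRccATGG, with R for a purine, were present at 12 of the 1175 start codons.

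The groups differed in more than these bases. The median leader was 128 nt in strong, 140 nt in purine-only, 191.5 nt in G-only and 190 nt in weak transcripts, and 70.9% of weak against 41.7% of strong leaders held another AUG. The bases flanking the AUG were 55.4% GC in the median weak window and 60.7% in the median strong one. The median RPKM was close in the strong and weak groups, at 17.1 and 16.3. The largest imbalance was in the isoform. MANE Select is the single transcript per gene that Ensembl and RefSeq chose together as its default. The annotated AUG was also the MANE Select start in 384 of 480 strong (80.0%), 379 of 518 purine-only (73.2%), 37 of 74 G-only (50.0%) and 29 of 103 weak start codons (28.2%). Of the 346 start codons that were not shared with MANE Select, 284 lay downstream of it, 41 upstream, and 21 were in genes with no such start in the annotation. The RPL13A start printed above is downstream of the MANE Select start of its gene. Reads from such a stretch can come from either isoform and cannot be told apart here, so context and isoform moved together. The purine contrasts and the stretches are also given at MANE Select starts, and the other comparisons of strong with weak do not hold the isoform fixed.

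At the G of the AUG, 1152 of 1175 start codons were scored in all 4 profiles. The mean score there followed the base at +4. In icSHAPE in vivo it was 0.105 ± 0.00822 (SE, n = 473) in strong and 0.118 ± 0.0264 (n = 71) in G-only contexts, which both have G next. It was 0.404 ± 0.0165 (n = 510) in purine-only and 0.319 ± 0.0367 (n = 98) in weak contexts, which have A, C or U next. Thus the unadjusted strong minus weak difference at this G was negative, at -0.214 ± 0.0376, and at other AUG triplets of the same transcripts it was -0.167. The following base alone spread the icSHAPE in vivo mean from 0.107 before G and 0.164 before C to 0.436 before A and 0.545 before U. In icLASER in vivo the same order held, with 0.239 before G, 0.246 before C, 0.494 before A and 0.563 before U. A difference in this score between strong and weak start codons therefore compares G with other following bases unless +4 is held fixed. It is always G in strong minus G-only, and in purine-only minus weak it is never G, although the shares of A, C and U still differ.

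In vitro the icSHAPE means at this G were 0.111 in strong, 0.335 in purine-only, 0.103 in G-only and 0.231 in weak contexts. The icLASER means were 0.237, 0.459, 0.252 and 0.355 in vivo in that order of contexts, and 0.322, 0.637, 0.315 and 0.522 in vitro. A G scoring 0.5 or more was counted as reactive, and the intervals of these shares cover counting error over genes only. In icLASER in vitro 61.4% of purine-only starts (Wilson 95% interval 57.1 to 65.5) and 51.0% of weak starts (41.3 to 60.7) were reactive at the G, against 24.7% of strong starts (21.1 to 28.8). In icSHAPE in vivo these shares were 35.7%, 25.5% and 4.02%. The weak share in icLASER in vitro lay above its interval at MANE Select starts and below it at 20 RPKM or more. A score of exactly 0 was common: 39.5% of strong and 28.6% of weak starts had it at this G in icSHAPE in vivo.

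With G at +4, purine and pyrimidine at -3 gave scores at the G of the AUG that differed by less than their error over all genes. Strong minus G-only was -0.0127 ± 0.0277 in icSHAPE in vivo, 0.00795 ± 0.0313 in icSHAPE in vitro, -0.0152 ± 0.0404 in icLASER in vivo and 0.00651 ± 0.0429 in icLASER in vitro. The 95% interval over genes in icSHAPE in vivo ran from -0.0669 to 0.0415, so a difference of a few hundredths either way is not shown to be absent. At MANE Select starts strong minus G-only was -0.0271 ± 0.0425, 0.0238 ± 0.0424, -0.0255 ± 0.0552 and 0.0292 ± 0.0528 in the same order. At the other starts it was -0.0181 ± 0.0378, -0.0449 ± 0.0479, -0.0413 ± 0.0638 and -0.0940 ± 0.0715. The last exceeded its SE, but every interval in both subsets included 0.

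Without G at +4, the purine went with a higher score in every profile. Purine-only minus weak was 0.0844 ± 0.0402 in icSHAPE in vivo, 0.103 ± 0.0403 in icSHAPE in vitro, 0.103 ± 0.0414 in icLASER in vivo and 0.114 ± 0.0445 in icLASER in vitro, each with a 95% interval over genes above 0. With equal shares of A, C and U at +4 in both groups it was 0.0763 ± 0.0391, 0.10004 ± 0.0393, 0.102 ± 0.0410 and 0.106 ± 0.0432, and the icSHAPE in vivo interval then included 0. The same contrast at other AUG triplets was 0.0100, 0.00450, 0.0165 and 0.0134. Among transcripts of at least 20 RPKM it was larger, at 0.168, 0.250, 0.205 and 0.211. It was not resolved at MANE Select starts, where it was 0.0267 ± 0.0674, 0.00549 ± 0.0751, 0.0399 ± 0.0745 and -0.0116 ± 0.0685 in the same order, with 379 purine-only but only 28 weak starts scored. In each profile the interval there included both 0 and the value over all start codons. At starts not shared with MANE Select purine-only minus weak was 0.0551 ± 0.0542, 0.0949 ± 0.0524, 0.0707 ± 0.0550 and 0.0659 ± 0.0596, so in both subsets the interval included 0 in all 4 profiles. Within the purine-only group itself, starts shared with MANE Select had higher means than the others at this G. The gap was 0.0819 ± 0.0368, 0.0744 ± 0.0387, 0.0905 ± 0.0393 and 0.154 ± 0.0384 in the same order. Its interval included 0 in icSHAPE in vitro only. The purine difference over all start codons is thus not separated from the difference in isoform.

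**Figure D1:**
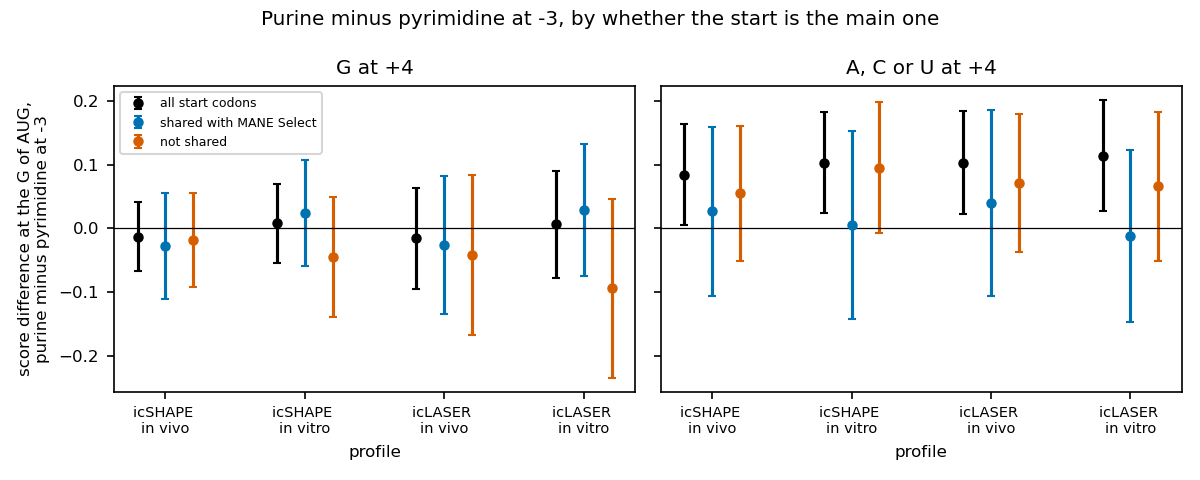
Difference in mean score at the G of the AUG between purine and pyrimidine at -3 (vertical axis), with G at +4 on the left and A, C or U on the right, in the 4 profiles. Points are all start codons, those shared with MANE Select and the rest, with bars of the 95% interval over genes. On the right all 4 black points lie above 0, while the bars of both subsets reach 0.

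The A of the AUG is always followed by U, so no following base has to be held fixed there, although the bases after it still differ. It scored 0.301 in strong, 0.290 in purine-only, 0.252 in G-only and 0.195 in weak contexts in icSHAPE in vivo. Purine-only minus weak was 0.0948 ± 0.0311 in that profile and 0.0609 ± 0.0332 in icSHAPE in vitro. With G at +4, strong minus G-only at this A was 0.049 ± 0.0341 in icSHAPE in vivo and 0.0818 ± 0.0376 in icSHAPE in vitro. In icLASER purine-only minus weak was -0.0172 ± 0.0262 in vivo and 0.00378 ± 0.0254 in vitro. At MANE Select starts the icSHAPE in vivo value of purine-only minus weak was -0.0312 ± 0.0645, and at the other starts it was 0.1004 ± 0.0360. Strong minus G-only in icSHAPE in vitro went the other way, at 0.121 ± 0.0552 at MANE Select starts and -0.0495 ± 0.0539 at the others. The U of the AUG is followed by G in every context, yet it was low with G at +4 as well, at 0.0427 in strong and 0.0811 in G-only contexts against 0.206 in purine-only and 0.168 in weak contexts in icSHAPE in vivo. At other AUG triplets the G at +4 also went with a lower score at the U, by -0.0851 with a purine at -3 and -0.0887 with a pyrimidine. The base 2 positions after a nucleotide therefore moved with its score too.

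The nucleotide just before the AUG had the highest mean score of the positions from -4 to +4 in both icSHAPE profiles and in icLASER in vivo. It was 0.603 ± 0.0110 in icSHAPE in vivo, 0.524 ± 0.0122 in icSHAPE in vitro and 0.414 ± 0.0119 in icLASER in vivo (SE, n = 1151). In icLASER in vitro it was 0.464 ± 0.0121, just below the G of the AUG at 0.478 ± 0.0116. Less the mean of the same base and following base over the member transcripts, the excess at -1 was still 0.331 in icSHAPE in vivo and 0.183 in icLASER in vivo. At this nucleotide strong contexts averaged 0.627, purine-only 0.571, G-only 0.717 and weak 0.566 in icSHAPE in vivo, and strong minus weak was 0.0615 ± 0.0425, with an interval that included 0. It was 0.143 ± 0.0459 in icSHAPE in vitro and 0.0887 ± 0.0430 in icLASER in vivo, with intervals above 0, and 0.0789 ± 0.0459 in icLASER in vitro, with one that included 0. These values do not hold the base at -1 itself, the base at +4 or the isoform fixed. The base at -1 was C in 48.1% of strong and 36.9% of weak starts.

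**Figure D2:**
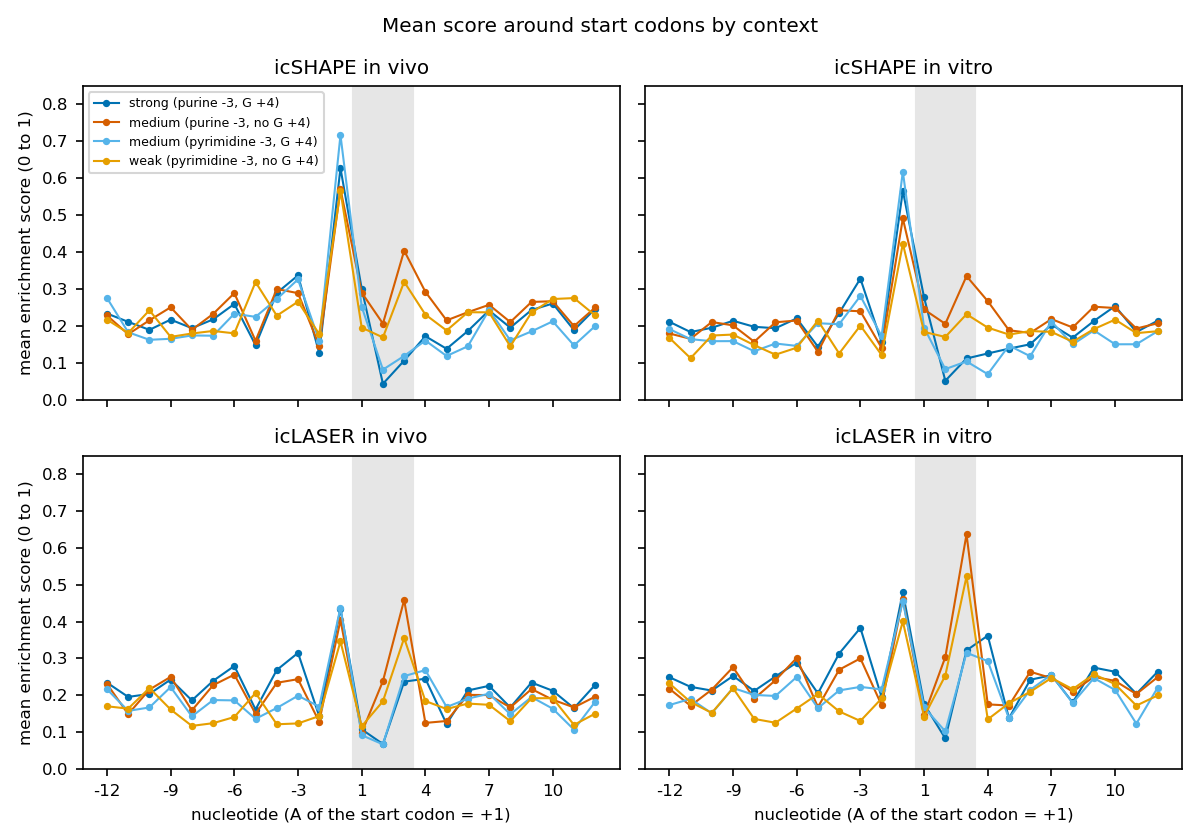
Mean score (vertical axis, 0 to 1) at each nucleotide from -12 to +12 in the 4 profiles, with 1 line for each context and the AUG shaded. In both icSHAPE profiles every line is highest at -1, and at the G of the AUG the contexts without G at +4 stand above those with it.

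To compare whole stretches with the following base controlled, each score was taken less the mean of its base and following base in that profile. Over -30 to -7, strong contexts lay above weak ones by 0.0321 ± 0.0141 in icSHAPE in vivo, 0.0588 ± 0.0150 in icSHAPE in vitro, 0.0600 ± 0.0147 in icLASER in vivo and 0.0634 ± 0.0149 in icLASER in vitro. Over +10 to +33 the differences were 0.0308 ± 0.0127, 0.0415 ± 0.0140, 0.0404 ± 0.0108 and 0.0356 ± 0.0135. Over -6 to -1 they were 0.0159 ± 0.0213, 0.0751 ± 0.0182, 0.0666 ± 0.0190 and 0.0764 ± 0.0198. Over the AUG the sign was negative in all 4 profiles, from -0.0497 to -0.0170, and the interval left out 0 in icLASER in vitro only. This sign was not stable, since at 20 RPKM or more the values were 0.0239, 0.0523, 0.0151 and -0.0148, and with both following bases in the standard they were -0.000177, 0.0106, 0.0297 and -0.00370. From +4 to +9 the interval included 0 in every profile. The differences over +10 to +33 were larger at 20 RPKM or more in all 4 profiles.

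At MANE Select starts this pattern was different. Over -30 to -7 strong contexts were above weak ones by 0.0385 ± 0.0200, 0.0351 ± 0.0238, 0.0351 ± 0.0264 and 0.0496 ± 0.0250 in the order of profiles above, with 29 weak starts, and the interval left out 0 in icLASER in vitro only. At starts not shared with MANE Select they were -0.00429 ± 0.0215, 0.0311 ± 0.0239, 0.0315 ± 0.0225 and 0.0185 ± 0.0236, with intervals that included 0, so the upstream difference over all start codons was otherwise resolved in neither subset. Over -6 to -1 at MANE Select starts they were -0.0462 ± 0.0356, 0.0100 ± 0.0312, -0.00883 ± 0.0416 and 0.0258 ± 0.0407, with intervals that included 0 in every profile, and at the other starts -0.00464 ± 0.0307, 0.0334 ± 0.0267, 0.0606 ± 0.0276 and 0.0414 ± 0.0298, with an interval above 0 in icLASER in vivo only. Over +10 to +33 at MANE Select starts the differences were -0.0147 ± 0.0217, -0.00221 ± 0.0245, 0.00195 ± 0.0199 and -0.00680 ± 0.0192, all within 1 SE of 0. At starts not shared with MANE Select they were 0.0400 ± 0.0191, 0.0572 ± 0.0221, 0.0582 ± 0.0182 and 0.0489 ± 0.0222, with intervals above 0, so the downstream difference over all start codons was seen in that subset and not at MANE Select starts. Whether the subsets differ was not tested. From +4 to +9 at MANE Select starts, strong contexts were below weak ones, at -0.0783 ± 0.0330, -0.119 ± 0.0404, -0.0468 ± 0.0396 and -0.0830 ± 0.0398, with intervals below 0 in all profiles but icLASER in vivo. At the other starts the sign was opposite, at 0.0252 ± 0.0258, 0.0193 ± 0.0282, 0.0258 ± 0.0218 and 0.0184 ± 0.0267, with intervals that included 0. Over the AUG of MANE Select starts, weak contexts were higher, with intervals that left out 0, in 3 profiles, with strong minus weak at -0.134 ± 0.0473 in icSHAPE in vivo, -0.132 ± 0.0473 in icSHAPE in vitro and -0.182 ± 0.0447 in icLASER in vitro, and at -0.0561 ± 0.0445 in icLASER in vivo. At the other starts it was -0.0126 ± 0.0302, -0.0183 ± 0.0297, -0.0157 ± 0.0303 and -0.0393 ± 0.0327, with intervals that included 0. Strong and weak differ at +4, and the score at the U moved with that base, which this standard does not hold fixed at the U. Whether the base at +4 contributes to these values over the AUG was not tested at MANE Select starts. With +4 free of G in both groups, the contrasts at A, U and G of MANE Select starts had intervals that included 0 in every profile.

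Start codons were also set beside AUG triplets elsewhere in the same transcripts and in the same context class. At the G, purine-only starts exceeded the other triplets by 0.149 ± 0.0182 in icSHAPE in vivo (n = 501 genes), 0.138 ± 0.0186 in icSHAPE in vitro, 0.0571 ± 0.0197 in icLASER in vivo and 0.197 ± 0.0189 in icLASER in vitro. Strong starts exceeded theirs by 0.0215 ± 0.00998, 0.0319 ± 0.0129, 0.0469 ± 0.0174 and 0.111 ± 0.0184 (n = 406). Of the 30510 other triplets only 1430 lay in leaders, and against these alone the strong value was -0.0718 ± 0.0445 in icSHAPE in vivo, 0.00428 ± 0.0444 in icSHAPE in vitro, 0.0148 ± 0.0531 in icLASER in vivo and -0.0632 ± 0.0560 in icLASER in vitro (n = 52), so the excess of strong starts was not seen against leader triplets. Purine-only starts less theirs in leaders gave 0.09998 ± 0.0488, 0.0699 ± 0.0483, 0.0862 ± 0.0530 and 0.109 ± 0.0538 (n = 111), with intervals that included 0 in icSHAPE in vitro and icLASER in vivo. For weak starts this gap was 0.0745 ± 0.0947, 0.0120 ± 0.0845, 0.229 ± 0.0737 and 0.0692 ± 0.111 (n = 29), with an interval above 0 in icLASER in vivo only. The 95 weak starts with such triplets differed by 0.0482 ± 0.0414, 0.0250 ± 0.0435, -0.0649 ± 0.0405 and 0.0598 ± 0.0480, all with intervals that included 0. For G-only starts the gap was 0.0305 ± 0.0334, 0.0156 ± 0.0392, 0.0817 ± 0.0461 and 0.106 ± 0.0562 (n = 58), again with intervals that included 0. Whether the excess differs between classes was not tested, and the sign of the weak value rests on the transcripts taken. At MANE Select starts it was 0.131, 0.171, 0.0344 and 0.215, while at 20 RPKM or more it was -0.0771, -0.117, -0.212 and -0.0848.

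The in vivo minus in vitro difference shows where the score of a nucleotide was lower, or higher, in cells than on refolded RNA. In icLASER the G of the AUG was lower in vivo in every context over all start codons. The mean was -0.0849 ± 0.0158 in strong, -0.178 ± 0.0154 in purine-only, -0.0632 ± 0.0258 in G-only and -0.167 ± 0.0386 in weak contexts. Over all start codons, -0.132 ± 0.0102 at this G was the lowest of the 63 positions, followed by -0.0673 ± 0.00914 at +4. By context, the value at +4 was -0.117 ± 0.0153 in strong, -0.0471 ± 0.0119 in medium and 0.0498 ± 0.0285 in weak contexts. The class rule sets the base at +4, which was G in every strong, 12.5% of medium and no weak starts. These values at +4 therefore compare G with other bases and are not a difference between contexts at like bases. In strong contexts +4 thus lay below the G of the AUG. At the G of the AUG, the contexts with G at +4, whose levels are lower, fell by less in score. Purine against pyrimidine at -3 made no difference beyond its error, at -0.0109 ± 0.0416 without and -0.0217 ± 0.0303 with G at +4. Over the whole AUG the difference was -29.05% of the in vitro mean in strong, -26.6% in purine-only, -29.7% in G-only and -29.99% in weak contexts. These shares rest on means of -0.0563, -0.0966, -0.0579 and -0.0933, while the medians over genes were nearer 0, at -0.0257 in strong, -0.0613 in purine-only and -0.0393 in weak contexts. At MANE Select starts the difference at the G was -0.0972 ± 0.0175 in strong, -0.194 ± 0.0175 in purine-only, -0.0425 ± 0.0402 in G-only and -0.246 ± 0.0856 in weak contexts. At the other starts the difference was -0.0318 ± 0.0365 in strong, -0.131 ± 0.0322 in purine-only, -0.0845 ± 0.0323 in G-only and -0.136 ± 0.0417 in weak contexts. The intervals of G-only at MANE Select starts and of strong at the other starts included 0.

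**Figure D3:**
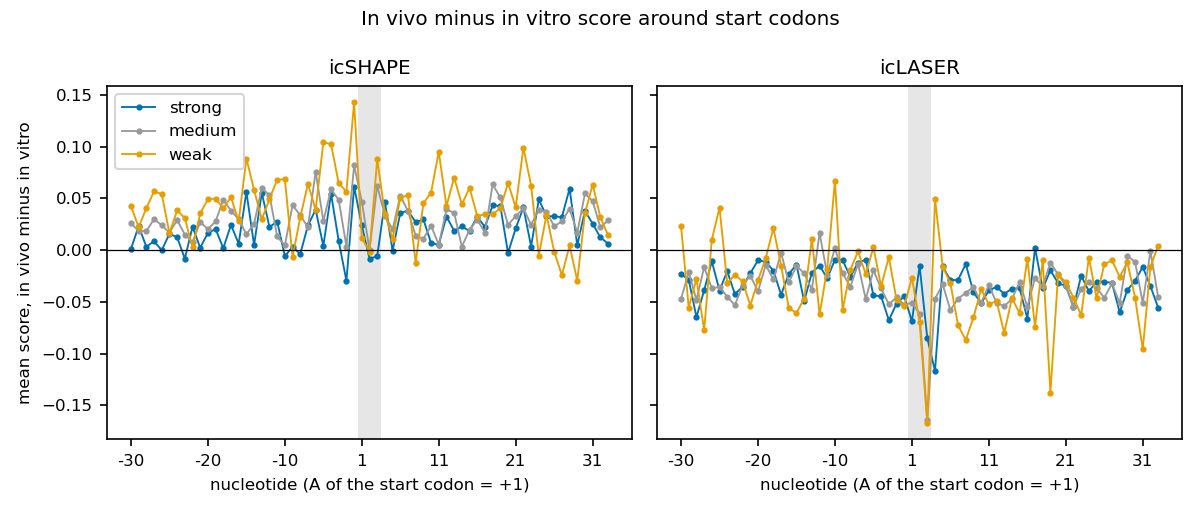
Mean in vivo minus in vitro score (vertical axis) at each nucleotide of the window for strong, medium and weak start codons, icSHAPE on the left and icLASER on the right, with the AUG shaded. The icLASER lines reach -0.0849, -0.164 and -0.167 at the G of the AUG, and the weak line is the noisiest because it averages the fewest genes.

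Other AUG triplets in the same class and transcripts were lower in vivo by less in icLASER, at -0.0207 in strong and -0.0403 in purine-only classes. Start codon less other triplets was -0.0645 ± 0.0197 in strong, -0.140 ± 0.0163 in purine-only and -0.125 ± 0.0458 in weak contexts. In G-only contexts it was -0.0241 ± 0.0436, with an interval that included 0. A G elsewhere in the same window and before A, C or U differed by -0.0854, against -0.179 at the G of the AUG, a gap of -0.0939 ± 0.0161 (n = 581). For a G before G the gap was -0.0379 ± 0.0153 (n = 532). AUG triplets in the leader, however, were also lower in vivo. In 111 purine-only transcripts with one, the start differed by -0.175 and the leader triplets by -0.152, and in 29 weak transcripts by -0.0939 and -0.254. The start minus leader gap was -0.0228 ± 0.0413 and 0.160 ± 0.103, and in 52 strong transcripts it was 0.0780 ± 0.0697, opposite in sign to the -0.0645 above, so the icLASER decrease is not shown to be particular to the annotated start within the leader region.

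The icSHAPE scores as deposited gave no such decrease. At the G of the AUG, in vivo less in vitro gave -0.00584 ± 0.0116 in strong, 0.0690 ± 0.0144 in purine-only, 0.0148 ± 0.0286 in G-only and 0.0879 ± 0.0371 in weak contexts. Other AUG triplets had 0.00841, 0.0599, -0.000305 and 0.0531, and in every class the interval of the gap included 0. The icSHAPE in vivo profile was higher as a whole, with a mean of 0.181 over member transcripts against 0.152 in vitro, while the icLASER means were 0.167 and 0.165. Divided by these means, the icSHAPE difference of 0.0397 over the purine-only AUG became -0.00810 and that of 0.00331 over the strong AUG became -0.0220, so their direction rests on the scale of the profiles.

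Single start codons were called changed when their mean over -6 to +6 moved by at least 0.1. In icLASER 320 of 1141 (28.05%) were lower in vivo, against a background of 17.4% of 29923 other AUG triplets, and 84 (7.36%) were higher, against 15.6%. Of all 30510 other AUG triplets only 1430 lay in leaders, where triplets were also lower in vivo. A background of leader triplets alone was not computed. Lower icLASER calls made up 27.2% of strong (Wilson interval 23.4 to 31.4), 30.8% of purine-only (26.96 to 34.99), 18.6% of G-only (11.2 to 29.2) and 24.5% of weak contexts (16.9 to 34.05), and these intervals overlap. In icSHAPE 131 (11.5%) were lower against a background of 11.3% and 298 (26.1%) were higher against 25.8%, so the share of icSHAPE calls was near the background in both directions.

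Among the most abundant strong start codons, RPLP1, a protein of the ribosomal stalk, had scores at the G of 0.016 in icSHAPE in vivo, 0 in icSHAPE in vitro, 0.127 in icLASER in vivo and 0.180 in icLASER in vitro. HBG1, a fetal globin chain, had 0.014, 0.016, 0.031 and 0.034 in the same order. The large-subunit protein gene RPL32 had 0.015, 0.028, 0.093 and 0.120. All 3 starts were MANE Select starts with low scores in every profile. HBG1 and HBG2, like many ribosomal protein genes and their pseudogenes, are nearly identical copies, so reads may be split between them and their values are uncertain. HBG2, whose annotated AUG here lies downstream of the MANE Select start, had 0.001, 0.004, 0.020 and 0.018.

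Purine-only starts spread more widely. RPL41, the most abundant member at 2520 RPKM, had 0.012, 0.022, 0.208 and 0.201 at the G. The notch ligand homolog DLK1 had 1, 0.781, 1 and 1, and RPL12 had 0.118, 0.254, 0.406 and 0.607. DLK1 and RPL41 both have A at +4, so the following base does not set the value of a single gene. RPS18 had 0.109, 0.081, 0.185 and 0.253 at an AUG downstream of the MANE Select start.

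In G-only contexts, RPL31 had 0.012, 0, 0.308 and 0.115 and RPL14 had 0.219, 0.219, 0.633 and 1 at the G. RPS2 had 1 in all 4 profiles, although it too is followed by G. RPS6, at an AUG downstream of the MANE Select start, had 0.022, 0.127, 0.180 and 0.443. The named G-only starts thus covered nearly the full scale in icSHAPE.

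Among the most abundant weak starts, those of RPS19, RPL13A and RPS20 were all downstream of the MANE Select start of their gene. RPS19 had 0.330, 0.195, 1 and 1 at the G, and RPL13A had 0.113, 0.244, 0.367 and 0.553. RPS20 had 0.003, 0.018, 0.065 and 0.077. EIF1, a weak start that is also the MANE Select one, had 0.708, 0.653, 1 and 1 and a mean RPKM of 94.3. Its mean over -6 to +6 was 0.405 in vivo and 0.371 in vitro in icSHAPE, and 0.261 and 0.235 in icLASER. EIF1 therefore scored high at the G with both reagents, and its icLASER mean was not lower in vivo.

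Some start codons differed far more than the mean between conditions. In icLASER ANXA1, a membrane-binding annexin, had a mean of 0.224 in vivo and 0.731 in vitro over -6 to +6. The RNA-binding protein gene HNRNPK had 0.295 and 0.747, and the glycolytic enzyme gene ENO1 had 0.278 and 0.721. ANXA1 and HNRNPK are strong and ENO1 is purine-only, and all 3 are MANE Select starts. Among the highest differences were those of TCP1, a chaperonin subunit, with 0.5 in vivo and 0.110 in vitro, and of the mitochondrial thioredoxin gene TXN2 with 0.540 and 0.283.

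In icSHAPE the lowest differences were at UQCRHL, a near-identical copy of UQCRH whose reads are uncertain, with 0.343 in vivo and 0.723 in vitro, at the mitochondrial ribosomal protein gene MRPL36 with 0.200 and 0.550, and at CIAO2A with 0.435 and 0.767. The same 3 starts were lower in vivo in icLASER, by -0.229, -0.265 and -0.349. The highest icSHAPE differences were at the mitochondrial chaperonin gene HSPD1, with 0.886 and 0.250, at the glutamine synthetase gene GLUL with 0.526 and 0.098, and at the SNARE protein gene SNAP29 with 0.507 and 0.0913. In icLASER these 3 were lower in vivo, by -0.137, -0.0883 and -0.0637. These genes were picked for their size of difference, and the depth behind each is unknown.

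Genes of the translation machinery were compared as lists, by counts and medians only. Of 80 ribosomal protein genes, 68 were members, with 22 strong, 42 medium and 4 weak starts, so 32.4% were strong against 40.9% of all members. Only 44 of the 68 were MANE Select starts. Their median icLASER difference over the AUG was -0.0130, with 37 of 68 below 0, beside -0.0420 and 716 of 1150 over all start codons. In icSHAPE 41 of 68 were below 0, with a median of -0.0135, beside 452 of 1150 and 0.0117 over all. The median RPKM of this list was 374.5, against 17.7 over all. The score at the G had a median of 0.111 in icSHAPE in vivo and 0.312 in icLASER in vivo, against 0.0955 and 0.196 over all.

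Of 43 initiation factor genes, 21 were members, with 7 strong, 11 medium and 3 weak starts. In icLASER 14 of 20 scored were lower in vivo over the AUG, with a median of -0.0473, beside 716 of 1150 and -0.0420 over all. In icSHAPE 6 of 20 were lower, with a median of 0.0202, beside 452 of 1150 and 0.0117 over all. Among them EIF3M, a subunit of the factor eIF3 that binds the small ribosomal subunit, had 0.608, 0, 0 and 0.306 at the G. Of 12 elongation factor genes 8 were members, 5 of them strong. EEF1A1, which carries aminoacyl-tRNA to the ribosome, had 0.048, 0.041, 0.087 and 0.079 at the G, and its exchange factor EEF1B2 had 0.032, 0, 0.042 and 0.042. Of the 8, 6 were lower in vivo in icLASER, with a median of -0.0560, beside 716 of 1150 and -0.0420 over all. In icSHAPE 1 was lower, with a median of 0.0553, beside 452 of 1150 and 0.0117 over all. Of 32 proteasome genes 19 were members, with 8 strong, 11 medium and no weak starts. In icLASER 14 of 19 were lower in vivo, with a median of -0.0290, beside 716 of 1150 and -0.0420 over all. In icSHAPE 10 of 19 were lower, with a median of -0.0133, beside 452 of 1150 and 0.0117 over all. The strong start of the catalytic subunit gene PSMB6 had 0.002, 0, 0.119 and 0.130 at the G.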

How the data were processed

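The deposited files hold 4 profiles. Per the file headers and the study's methods, the authors mapped reads to the Ensembl 88 transcriptome (GRCh38), pooled replicates, and ran the icSHAPE pipeline without its minimum coverage and background filters. Each deposited line gives the authors' RPKM and a score from 0 to 1 per nucleotide. Bowtie2 and Trimmomatic are named in the submitters' processing notes.

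Transcripts were matched by identifier and equal length to GENCODE 44 (Ensembl 110), with start codons from its annotation. Only positions scored in all 4 profiles were used. Values are means over genes. No test was run, since each condition is 1 pooled profile. The SE and the 95% interval (1.96 SE) describe spread over genes, and depth per nucleotide is unknown. Calls used a difference of at least 0.1. The steps were tested on simulated scores of 1175 start codons, with a largest error of 0.0179.

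Named genes were the 4 most abundant per context, scored throughout -12 to +12, the 3 lowest and 3 highest in vivo minus in vitro differences per reagent (RPKM of at least 20, score of at least 0.1 in the higher condition), and up to 4 of each gene list plus EIF1. EIF5 was not among the start codons. Some genes that this rule names are not reported here. Members, lists and contrasts were chosen with earlier results of these data known. The MANE Select split, the comparison with leader AUGs, the other G of the window and the other alternatives named as such in the closing section were added after seeing the data. Python 3.11.15, numpy 2.4.6, scipy 1.17.1 and matplotlib 3.10.9 were used.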

Additional observations from a re-analysis of the deposited data

How the results depend on the processing

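No paired analysis was possible because replicates were pooled in every profile, and leaving out a replicate was not possible for the same reason. With no replicates, a value counted as unmoved inside the 95% interval over genes of its first value (shares: within the Wilson interval). Of 850 alternative values of 80 results, 710 were unmoved, 124 moved and 16 changed the sign of a value whose interval had left out 0. None moved without ribosomal protein genes, with the longest coding sequence per gene, with other AUG triplets of the coding sequence only, with a trinucleotide standard of the base before, or with equal shares of A, C and U at +4. Where a value below changed sign, the cause was not tested. Depth limits every single score, and it is unknown.

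At mean RPKM of at least 20, the score contrast at the G was icSHAPE in vivo purine-only minus weak 0.168, icSHAPE in vitro purine-only minus weak 0.250, icLASER in vivo purine-only minus weak 0.205 and icLASER in vitro purine-only minus weak 0.211, the excess over other AUG triplets icSHAPE in vivo weak -0.0771, icSHAPE in vitro weak -0.117, icLASER in vivo G-only -0.0322, weak -0.212 and icLASER in vitro weak -0.0848, the residual strong minus weak icSHAPE in vivo AUG 0.0239, +10 to +33 0.0654, icSHAPE in vitro AUG 0.0523, +10 to +33 0.0793, icLASER in vivo -6 to -1 0.105, +10 to +33 0.0660 and icLASER in vitro +4 to +9 0.0399, +10 to +33 0.0713, the in vivo minus in vitro difference over the AUG icSHAPE strong -0.0143 and icLASER purine-only -0.0663 and the reactive percent icSHAPE in vivo strong 2.5, icSHAPE in vitro weak 2.78, icLASER in vivo weak 19.4 and icLASER in vitro weak 36.1. With all 63 positions scored the residual was icLASER in vitro -30 to -7 0.0334. Medians over genes put the difference over the AUG at icLASER strong -0.0257, purine-only -0.0613, weak -0.0393. With profiles divided by their means it was icSHAPE strong -0.0220, purine-only -0.00810. Without control of base and following base the residual was icSHAPE in vivo AUG -0.0840, icLASER in vivo AUG -0.0804 and icLASER in vitro AUG -0.117.

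With a reactive limit of 0.3 the percent was icSHAPE in vivo strong 10.1, purine-only 48.6, weak 41.8, icSHAPE in vitro strong 12.9, purine-only 38.8, icLASER in vivo strong 28.3, purine-only 53.9, weak 40.8 and icLASER in vitro strong 39.3, purine-only 74.5, G-only 36.6, weak 61.2, and with 0.8 it was icSHAPE in vivo strong 1.90, purine-only 23.9, weak 17.3, icSHAPE in vitro strong 3.81, purine-only 21.96, icLASER in vivo strong 9.73, purine-only 30.2, G-only 11.3, weak 20.4 and icLASER in vitro strong 15.01, purine-only 49.02, weak 37.8. With scores assigned 1 nucleotide upstream the contrast was icLASER in vivo purine-only minus weak -0.0593 and the excess icSHAPE in vivo purine-only 0.0945, icSHAPE in vitro purine-only 0.0987, icLASER in vivo strong -0.0306, purine-only 0.0127, G-only -0.0193, weak 0.0656, icLASER in vitro purine-only 0.0682 and icLASER difference strong -0.118, purine-only -0.0554, weak 0.0383. With them assigned 1 nucleotide downstream the excess was icSHAPE in vivo purine-only 0.0836, icSHAPE in vitro purine-only 0.0792, icLASER in vitro strong 0.0225, purine-only 0.113 and icLASER difference strong -0.00672, purine-only -0.0884.

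The next alternatives were chosen after seeing the data. In the MANE Select split below, the mean of each base and following base was recomputed over the transcripts kept, so residuals differ slightly from those of the report, which keep the mean over all member transcripts. At MANE Select starts the contrast was icSHAPE in vitro purine-only minus weak 0.00549 and icLASER in vitro purine-only minus weak -0.0116, the excess icSHAPE in vivo weak 0.131, icSHAPE in vitro weak 0.171, icLASER in vivo weak 0.0344 and icLASER in vitro purine-only 0.235, weak 0.215, the residual strong minus weak icSHAPE in vivo -6 to -1 -0.0462, AUG -0.134, +4 to +9 -0.0785, +10 to +33 -0.0147, icSHAPE in vitro -6 to -1 0.0101, AUG -0.133, +4 to +9 -0.119, +10 to +33 -0.00214, icLASER in vivo -6 to -1 -0.00900, +4 to +9 -0.0470, +10 to +33 0.00200 and icLASER in vitro -6 to -1 0.0255, AUG -0.183, +4 to +9 -0.0835, +10 to +33 -0.00675, the difference over the AUG icSHAPE G-only 0.0579, strong minus G-only -0.0608 and icLASER weak -0.193, purine-only minus weak 0.0914 and the reactive percent icSHAPE in vitro weak 28.6 and icLASER in vitro weak 71.4. At other starts the contrast was icLASER in vitro strong minus G-only -0.0940, the excess icSHAPE in vivo purine-only 0.0921, icSHAPE in vitro strong -0.0210, purine-only 0.0701, icLASER in vivo strong 0.0124, purine-only 0.00142, icLASER in vitro strong 0.0409, purine-only 0.0871, icSHAPE difference strong 0.0298 and icLASER difference purine-only -0.0857, the residual icSHAPE in vivo -30 to -7 -0.00414, icSHAPE in vitro -6 to -1 0.0332 and icLASER in vitro -30 to -7 0.0187, the difference icSHAPE strong 0.0301, G-only -0.0121, strong minus G-only 0.0422 and icLASER strong -0.0232 and the reactive percent icSHAPE in vivo purine-only 25.2, icSHAPE in vitro strong 4.49, purine-only 23.7, icLASER in vivo purine-only 37.4 and icLASER in vitro strong 17.98, purine-only 49.6. Against AUG triplets of the leader only, the excess was icSHAPE in vivo strong -0.0718, purine-only 0.09998, icSHAPE in vitro strong 0.00428, purine-only 0.0699, icLASER in vivo weak 0.229, icLASER in vitro strong -0.0632, purine-only 0.109, icSHAPE difference strong -0.0761 and icLASER difference strong 0.0780, purine-only -0.0228, weak 0.160. Less the mean difference of base and following base, the difference over the AUG was icSHAPE strong -0.0204, purine-only -0.000774. With short leaders included the excess was icLASER in vitro strong 0.160 and the reactive percent icLASER in vitro strong 30.1. With a standard of 2 following bases the residual was icLASER in vivo AUG 0.0297.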
